A study of Rattus norvegicus with 12 samples.

Results

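The 4 genes described here are *Alox15* and *Alox5*, which encode lipoxygenases, and *Ptgs1* and *Ptgs2*, which encode cyclooxygenases. Other lipoxygenase genes were not analysed here. They were chosen by Ensembl identifier, each had to lie on a given chromosome, and all 4 of 4 met this rule among the 32883 genes that were counted. Retinas were from Royal College of Surgeons (RCS) rats, in which a *Mertk* mutation prevents the retinal pigment epithelium from clearing shed photoreceptor outer segments, so that photoreceptors die in the weeks after birth. RNA with a poly(A) tail was sequenced from whole retinas in 12 libraries, 3 for each age and line. The immunocompetent line carried the genotype RCS-p+, was labelled WT and male, and was collected at day 21 (p21) or day 60 (p60). The athymic line carried the genotype RCS-p+/Foxn1mu, was labelled athymic and female, and was collected at the same 2 ages. *Foxn1* is required for the thymus, so athymic rats lack most mature T cells. No retina was treated, and both lines share the RCS background, so neither line is a healthy control. Degeneration and postnatal maturation from p21 to p60 cannot be told apart with these groups, nor can line and labelled sex.

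Lipoxygenases and cyclooxygenases oxidize polyunsaturated fatty acids (PUFAs), which phospholipases release from membranes. The enzyme encoded by *Alox15*, the 12/15-lipoxygenase, makes mono-hydroxylated products of arachidonic acid and of the omega-3 PUFAs, and these are precursors of lipoxins, resolvins and other specialized pro-resolving mediators (SPMs). *Alox5* encodes 5-lipoxygenase, which makes the precursor of the leukotrienes and also takes part in forming several SPMs. *Ptgs1* and *Ptgs2* encode cyclooxygenase-1 and cyclooxygenase-2, which convert arachidonic acid to the precursor of prostaglandins and thromboxane. The first is present in many cells at a steady level, and the second is known as the inducible form, although parts of the central nervous system express it without injury.

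Total counts were between 13852516 and 16725355 per library. Levels are given as counts and as normalized CPM, in which counts are divided by the library total after scaling with TMM factors. Levels of different genes are compared as RPKM, the normalized CPM per kilobase of exon. The labels number every library separately and do not say which animals they came from, so p-values measure the spread between these samples. Counts on the Y chromosome were 229 to 323 CPM in the 6 libraries labelled male and 8.79 to 23.2 CPM in libraries 6, 23 and 24, labelled female. Libraries 4, 5 and 22, also labelled female, had 269 to 328 CPM, which goes against their sex label, and library 3 had the lowest value of those labelled male. In libraries 4, 19 and 24, 50, 166 and 104 genes were at least 4-fold above both other libraries of their group, against 0 to 26 genes in each of the other libraries. The main results are also given below without libraries 4, 19 and 24 or without libraries 3, 4, 5 and 22. The files list no gene symbols and no identifier was found in RefSeq's gene table, so the retinal identity and other cell types were not checked by marker genes.

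**Figure D1:**
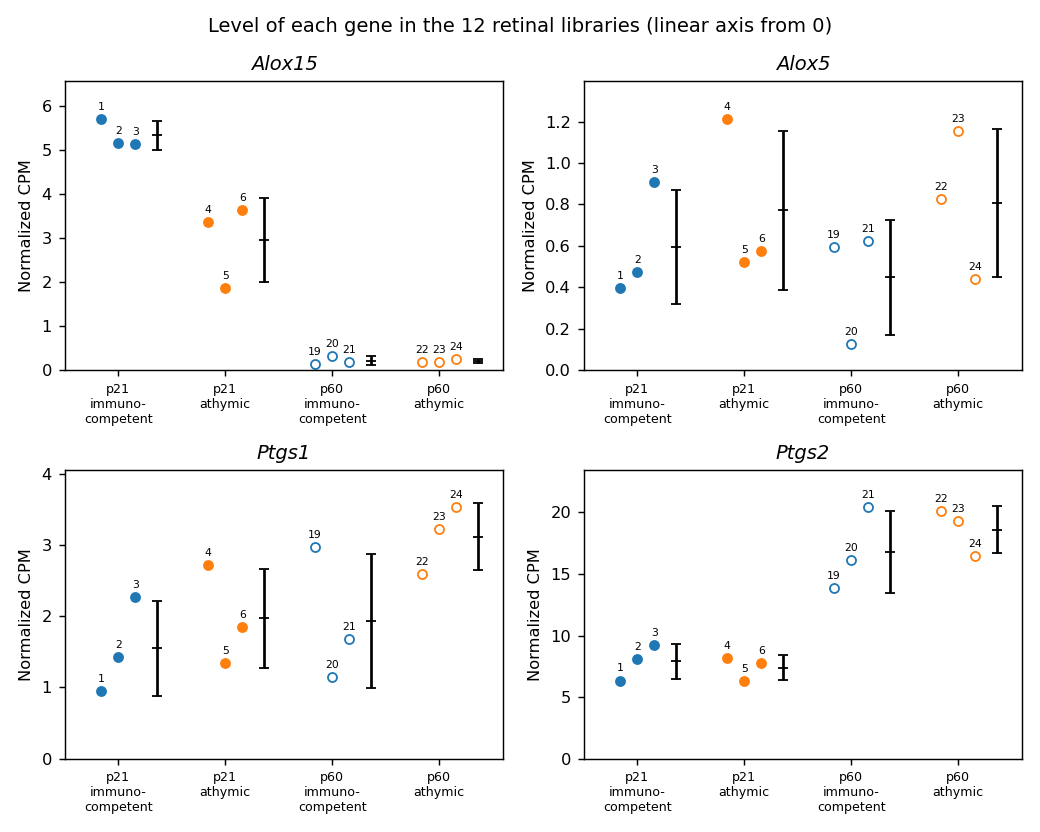
Normalized CPM of each gene in each library, where points carry the library number, filled points are p21 and open points p60, blue is the immunocompetent and orange the athymic line, and the bars are the mean and SD of 3 libraries. *Alox15* was between 1.87 and 5.71 at p21 and between 0.132 and 0.317 at p60, whereas *Ptgs2* was between 6.28 and 9.23 at p21 and between 13.9 and 20.4 at p60, and the ages overlapped for *Alox5* and *Ptgs1*.

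*Alox15* fell between p21 and p60 in both lines, from 25 to 76 counts in each library to 5 or fewer. The gene (ENSRNOG00000019183) lies on the minus strand of chromosome 10 from 56953691 to 56962161 in Rnor_6.0, and its counts are from 14 exon blocks with a total of 2211 bases. The immunocompetent retinas had 72, 76 and 68 counts at p21 and 2, 5 and 3 counts at p60. The athymic retinas had 47, 25 and 57 counts at p21 and 3, 3 and 4 counts at p60. Every p60 library was therefore below every p21 library, and the lowest p21 library, athymic library 5, still had more counts than all 6 p60 libraries together, which summed to 20 (95% exact Poisson interval 12.2 to 30.9, counting error only).

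In normalized CPM, immunocompetent retinas had 5.34 ± 0.327 of *Alox15* at p21 and 0.212 ± 0.0953 at p60, and athymic retinas had 2.96 ± 0.952 and 0.204 ± 0.0418 (SD, n = 3 each). Across both lines, the fall was -4.22 on the log2 scale (standard error 0.268, adjusted p = 9.60e-09 by edgeR's quasi-likelihood test). This is an 18.7-fold lower level at p60, with a 95% interval of 12.5 to 27.9. The ratio of summed counts had a 95% exact binomial interval of 12.7 to 32.9 (counting error only). The interval of the fit, which was derived here from edgeR's test, is therefore too narrow at its upper end. DESeq2 gave -4.29 with a standard error of 0.396. An exact permutation test of the 6 libraries of each age (two-sided, line not taken into account) gave p = 0.00216, the smallest value possible for 6 against 6. In this comparison 62% of the 16069 genes tested changed, and 30.3% were lower at p60, so passing the test was common. By size of change, 3 of the 16069 genes had a lower log2 fold change than *Alox15*, a place that rests on 20 counts at p60. *Alox15* passed the filter on low counts through its p21 libraries. In a whole retina, fewer cells that carry a transcript and less of the transcript per cell cannot be told apart.

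The fall of *Alox15* was found in each line alone. It was -4.60 on the log2 scale (standard error 0.327, adjusted p = 4.77e-06) in the immunocompetent line, where 51.4% of genes changed, and -3.82 (standard error 0.411, adjusted p = 1.11e-04) in the athymic line, where 49.9% changed (edgeR, n = 3 per age). These are 24.2-fold (95% interval 14.5 to 40.3) and 14.1-fold (7.37 to 27.0) lower levels. Each rests on 10 counts at p60, and in each line *Alox15* passed the filter on low counts through its p21 libraries. The exact permutation test of 3 libraries per age gave p = 0.1 in each line, the smallest value possible for 3 against 3. The ratios of summed counts had 95% exact binomial intervals of 13.3 to 52.9 and 7.77 to 31.5 (counting error only). The intervals of the fits, derived in the same way, are therefore too narrow at their upper ends. The changes of the lines differed by 0.78 (log2) (95% interval -0.50 to 2.07), which did not pass the test of the interaction (adjusted p = 0.757, edgeR). Without libraries 4, 19 and 24 the log2 fold change across both lines was -4.16, and without libraries 3, 4, 5 and 22 it was -4.40.

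At p21, *Alox15* was lower in the athymic than in the immunocompetent retinas in each of the 3 libraries, where the highest athymic library had 57 counts and the lowest immunocompetent library had 68. The log2 ratio of athymic over immunocompetent was -0.84 at this age (standard error 0.259), which did not pass the threshold (adjusted p = 0.294, edgeR, unadjusted p = 0.00932). No gene of 15225 passed in this comparison (0%), where 1936 genes had an unadjusted p under 0.05, and DESeq2 called 140 genes, *Alox15* not among them. Without libraries 3, 4, 5 and 22, which leaves library 6 as the sole athymic retina at p21, the difference was -0.56, with the spread of that library assumed to be like that of the others. At p60, 10 counts in each line were too few for *Alox15* to pass the filter, so the lines were not tested there, and their libraries overlapped.

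*Alox5* was close to the limit of detection at both ages, and no change was detectable at this depth. The gene (ENSRNOG00000012972) lies on the minus strand of chromosome 4 from 148398892 to 148446303, with 2570 exonic bases in 14 blocks. The immunocompetent retinas had 5, 7 and 12 counts at p21 and 9, 2 and 10 at p60. The athymic retinas had 17, 7 and 9 counts at p21 and 14, 19 and 7 at p60. High and low libraries occurred in every group, and the ages overlapped almost completely.

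Over 6 libraries, *Alox5* summed to 57 counts at p21 (95% exact Poisson interval 43.2 to 73.9) and 61 at p60 (46.7 to 78.4), which cover counting error only. The log2 fold change across both lines was -0.14 (standard error 0.400, adjusted p = 0.787, edgeR). Its 95% interval is a p60 level of 0.501 to 1.65 times that of p21, so a larger rise or fall lies outside the interval and a smaller one could not be seen. The sign of the estimate was not stable, where it was 0.12 without libraries 4, 19 and 24, and 0.21 without libraries 3, 4, 5 and 22. In the athymic line, the log2 fold change was 0.07 (95% interval -1.02 to 1.17, adjusted p = 0.915, edgeR). There it was 0.82 without libraries 4, 19 and 24 (adjusted p = 0.191) and 0.46 without libraries 3, 4, 5 and 22 (adjusted p = 0.756). In the immunocompetent line, *Alox5* was below the filter, with 24 counts at p21 and 21 at p60. Their ratio after scaling was 0.756 (95% exact binomial interval 0.400 to 1.42, counting error only).

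*Ptgs1*, the constitutive cyclooxygenase, had few counts and varied between libraries of one group. The gene (ENSRNOG00000007415) lies on the plus strand of chromosome 3 from 15560712 to 15582344, with 2803 exonic bases in 11 blocks. The immunocompetent retinas had 12, 21 and 30 counts at p21 and 45, 18 and 27 at p60. The athymic retinas had 38, 18 and 29 counts at p21 and 44, 53 and 56 at p60. Both athymic groups were separate in counts, whereas the immunocompetent groups overlapped.

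The normalized CPM of *Ptgs1* was 1.55 ± 0.667 at p21 and 1.93 ± 0.939 at p60 in the immunocompetent line, and 1.97 ± 0.692 and 3.12 ± 0.473 in the athymic line (SD, n = 3 each). On this scale the athymic groups overlapped as well, because library 4 had 2.71 at p21 and library 22 had 2.60 at p60. The log2 fold change across both lines was 0.49 (95% interval -0.09 to 1.08, adjusted p = 0.133, edgeR), and the exact permutation test over 6 libraries per age gave p = 0.128. It was 0.31 (adjusted p = 0.575) in the immunocompetent line and 0.65 (adjusted p = 0.0915) in the athymic line. None of these passed the threshold, and the intervals allow a p60 level between 0.936 and 2.12 times that of p21 across both lines.

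The estimate for *Ptgs1* depended on single libraries. Libraries 4, 19 and 24, in which many genes stood above their groups, had the most *Ptgs1* of their groups. Without library 19, the log2 fold change in the immunocompetent line was -0.13, and without libraries 4, 19 and 24 it was 0.35 across both lines (adjusted p = 0.376). Without libraries 3, 4, 5 and 22 it was 0.76 across both lines (adjusted p = 0.0862). In contrast, without library 3 it was 0.67 across both lines (adjusted p = 0.0472), and without library 4 it was 0.94 in the athymic line (adjusted p = 0.0378). With libraries scaled to total counts alone it was 0.68 across both lines (adjusted p = 0.0453). That scaling raised the median over all genes from 0.02 to 0.20 on the log2 scale, and the genes called higher and lower from 31.7% and 30.3% to 45.8% and 18.1%. The part of these libraries and of the scaling in the result was not tested further.

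*Ptgs2*, the inducible cyclooxygenase, rose from p21 to p60 in both lines and was the most abundant of the 4 genes at p60. The gene (ENSRNOG00000002525) lies on the plus strand of chromosome 13 from 67351087 to 67359335, with 4373 exonic bases in 10 blocks. The immunocompetent retinas had 80, 120 and 122 counts at p21 and 210, 254 and 328 at p60. The athymic retinas had 114, 84 and 122 counts at p21 and 340, 317 and 261 at p60. The ages did not overlap, and the lowest p60 value, in immunocompetent library 19, was still above the highest p21 value. In a whole retina, a larger share of cells that carry *Ptgs2* and more of its transcript per cell cannot be told apart.

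In normalized CPM, immunocompetent retinas had 7.90 ± 1.45 of *Ptgs2* at p21 and 16.8 ± 3.33 at p60, and athymic retinas had 7.40 ± 0.991 and 18.6 ± 1.91 (SD, n = 3 each). The log2 fold change across both lines was 1.21 (standard error 0.123, adjusted p = 1.18e-06, edgeR), a level 2.31-fold higher at p60 with a 95% interval of 1.92 to 2.77. The exact permutation test over 6 libraries per age gave p = 0.00216, the smallest possible. In this comparison 31.7% of genes were called higher at p60, and 541 of the 16069 genes had a higher log2 fold change. It was 1.08 (standard error 0.186, adjusted p = 0.00107) in the immunocompetent line, where 25.6% of genes were called higher, and 1.32 (standard error 0.134, adjusted p = 7.83e-05) in the athymic line, where 25.3% were. The difference of these changes was 0.24 (95% interval -0.28 to 0.77, adjusted p = 0.807, edgeR). In each line alone, the exact permutation test of 3 libraries per age gave p = 0.1, the smallest value possible for 3 against 3. Without libraries 4, 19 and 24 the log2 fold change across both lines was 1.33, and without libraries 3, 4, 5 and 22 it was 1.21.

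Of the cyclooxygenase genes, *Ptgs2* passed the test of age in the main fit and *Ptgs1* did not, but their changes were not compared with each other. Across both lines, the intervals of the log2 fold change were 0.94 to 1.47 for *Ptgs2* and -0.09 to 1.08 for *Ptgs1*. These overlap, so a difference between the genes was not shown. The bases before the start of both genes are given as a description only. They are the 250 bases upstream of each start in RefSeq's GRCr8 assembly, chr13:64713813-64714062 on the plus strand for *Ptgs2* and chr3:39981169-39981418 on the plus strand for *Ptgs1*, read 5′ to 3′. This assembly differs from that of the counts. Capitals mark matches on either strand to the motifs that were searched, which were chosen after the sequences were seen.
Ptgs2: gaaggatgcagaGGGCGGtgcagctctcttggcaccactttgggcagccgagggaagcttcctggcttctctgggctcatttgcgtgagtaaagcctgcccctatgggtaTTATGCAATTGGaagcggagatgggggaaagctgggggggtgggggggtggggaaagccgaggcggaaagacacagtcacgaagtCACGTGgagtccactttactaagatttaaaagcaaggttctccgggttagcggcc
Ptgs1: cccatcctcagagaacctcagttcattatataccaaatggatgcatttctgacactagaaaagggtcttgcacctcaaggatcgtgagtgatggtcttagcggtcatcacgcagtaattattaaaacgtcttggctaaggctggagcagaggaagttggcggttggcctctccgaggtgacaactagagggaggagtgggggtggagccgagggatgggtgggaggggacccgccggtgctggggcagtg
Upstream of *Ptgs2* there was a GC box (GGGCGG), 238 bases before the start, a C/EBP element (TTGCNNAA) on the opposite strand at 140, a CCAAT box (CCAAT) on the opposite strand at 133, which shares 1 base with it, and an E-box (CACGTG) at 55. Of 33469 upstream windows of the same length, 30.5% held the GC box, 9.22% the C/EBP element, 34% the CCAAT box and 5.59% the E-box. The TATA box (TATAAA, 12.9% of windows) and the CRE core (TGACG, 18.2%) were not matched in that window. Upstream of *Ptgs1*, none of these motifs was matched, and upstream of *Alox5* a GC box was matched 61 bases before the start. G and C made up 57.2% of the *Ptgs2* window and 54.4% of the *Ptgs1* window, against a median of 51.2% over all windows. These matches describe the letters in the windows and are not binding sites.

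**Figure D2:**
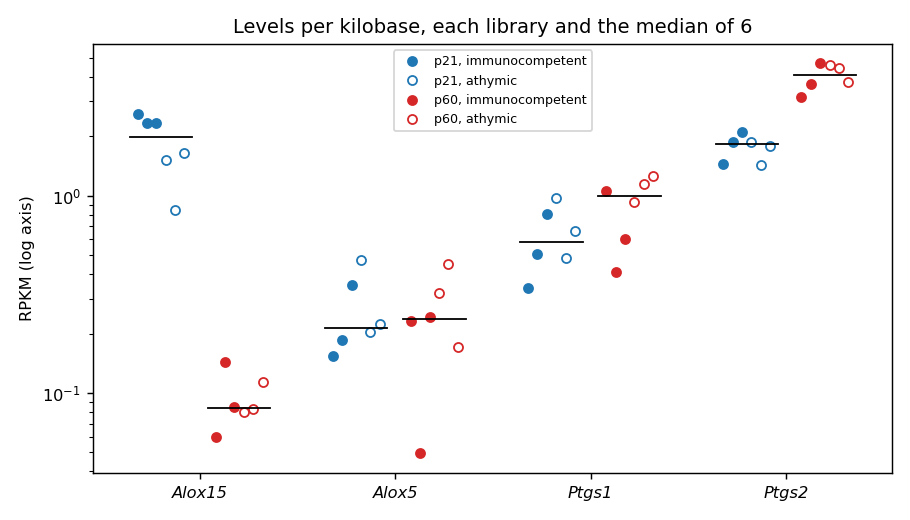
RPKM of the 4 genes on a log axis, with 1 point per library, filled for the immunocompetent and open for the athymic line, blue for p21 and red for p60, and a line at the median of 6 libraries. *Alox15* lay beside *Ptgs2* at p21, with means of 1.87 and 1.75 RPKM, and was the lowest by mean at p60, with 0.0941 RPKM.

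Per length of transcript, the order of the 4 genes differed between the ages. At p21, the mean was 1.87 ± 0.656 RPKM for *Alox15*, 1.75 ± 0.262 for *Ptgs2*, 0.628 ± 0.232 for *Ptgs1* and 0.265 ± 0.122 for *Alox5* (SD, n = 6). *Alox15* and *Ptgs2* overlapped at this age, and so did *Ptgs1* and *Alox5*. At p60, it was 4.05 ± 0.600 RPKM for *Ptgs2*, 0.901 ± 0.332 for *Ptgs1*, 0.244 ± 0.135 for *Alox5* and 0.0941 ± 0.0298 for *Alox15*. *Ptgs2* was above *Ptgs1* in every library at both ages, by 1.92 to 4.27 times at p21 and 2.99 to 9.04 times at p60. At p60, *Ptgs1* and *Alox5* overlapped in their ranges, and so did *Alox5* and *Alox15*. Within single libraries, *Ptgs2* was 0.562 to 1.70 times the level of *Alox15* at p21 (median 0.995) and 25.7 to 57.3 times at p60 (median 53.3), without overlap. *Alox15* was 3.21 to 16.7 times the level of *Alox5* at p21 and 0.184 to 2.91 times at p60. These p60 ratios rest on 2 to 5 counts of *Alox15* in each library.

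**Figure D3:**
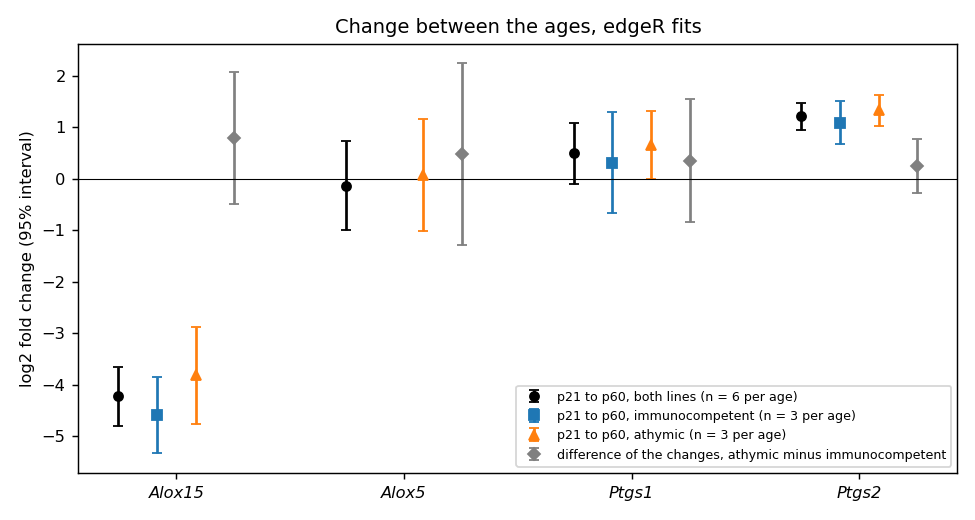
Log2 fold change of each gene with its 95% interval, for p21 to p60 in both lines (black), the immunocompetent line (blue) and the athymic line (orange), and for the difference of the changes of the lines (grey). The intervals of *Alox15* lie below 0 and those of *Ptgs2* above 0 in all 3 fits of age, whereas those of *Alox5* and *Ptgs1* and every grey interval hold 0. *Alox5* has no blue point because it was below the filter.

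The lines were also compared at both ages together. No gene of 16069 passed (0%), where 1904 genes had an unadjusted p under 0.05 and DESeq2 called 261. The log2 fold change of athymic over immunocompetent was -0.67 for *Alox15* (95% interval -1.20 to -0.13, adjusted p = 0.302), 0.61 for *Alox5* (-0.25 to 1.47, adjusted p = 0.598), 0.53 for *Ptgs1* (-0.06 to 1.12, adjusted p = 0.474) and 0.04 for *Ptgs2* (-0.23 to 0.30, adjusted p = 0.953), all from edgeR's quasi-likelihood test. Without libraries 3, 4, 5 and 22, the *Alox15* difference was -0.34, with a 95% interval of -1.08 to 0.41 that holds 0, and without libraries 4, 19 and 24 it was -0.85 (-1.47 to -0.24). At p60, where 0.0193% of genes passed (0.0129% higher and 0.00643% lower in athymic retinas), the log2 ratio was 0.69 for *Ptgs1* (95% interval -0.11 to 1.49, adjusted p = 0.599, edgeR) and 0.15 for *Ptgs2* (-0.19 to 0.49, adjusted p = 0.822), neither of which passed. Without libraries 4, 19 and 24, the *Ptgs1* difference at p60 was 1.04 (adjusted p = 0.196). The interaction of age and line passed for 1 of 16069 genes (0.00622%), which was none of the 4, where 1494 genes had an unadjusted p under 0.05 and DESeq2 called 146.

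**Figure D4:**
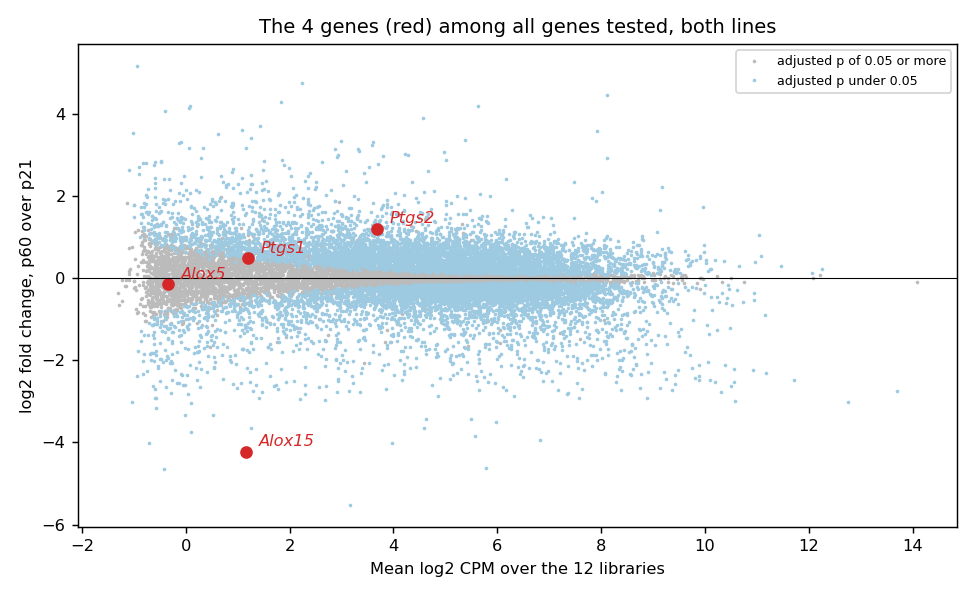
Log2 fold change from p21 to p60 across both lines against mean log2 CPM, for the 16069 genes tested (blue where adjusted p was under 0.05, grey otherwise) and the 4 genes in red. *Alox15*, at -4.22, has 3 genes below it, *Ptgs2*, at 1.21, lies at percentile 96.6, and *Alox5* and *Ptgs1* lie among genes that did not pass.

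In level, the lipoxygenases and *Ptgs1* were in the lower part of the genes tested. Over the 12 libraries, the mean log2 CPM was -0.34 for *Alox5*, above 3.75% of genes, 1.16 for *Alox15*, above 15.9%, 1.20 for *Ptgs1*, above 16.2%, and 3.69 for *Ptgs2*, above 37.7%. No other annotated gene shared exonic positions with any of the 4, and none overlapped their span. Reads from transcripts that are not annotated, or from similar sequences elsewhere, were not checked. The span of each gene differed from that of the RefSeq gene of the same symbol by at most 0.494% of its length, and both were on the same chromosome.

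Genes whose levels followed the same pattern were sought by Pearson's r of log2 CPM over the 12 libraries, among 14751 genes with a mean of at least 1 CPM. These libraries share the ages, so r includes the change with age, and it is given as a description. For *Alox15*, ENSRNOG00000040281 (chromosome 7, 2968435 to 2972521) had r = 0.993 and ENSRNOG00000015450 (chromosome 7, 117734002 to 117757249) had r = 0.990, and 1934 genes had r over 0.9. Both fell far less than *Alox15*, with log2 fold changes of -0.71 and -0.80. For *Ptgs2*, ENSRNOG00000016936 (chromosome 5, 172986291 to 173015494) had r = 0.983, with a log2 fold change of 0.70, and 1108 genes had r over 0.9. For *Ptgs1*, ENSRNOG00000016257 (chromosome 19, 52465087 to 52499433) had r = 0.933, and 2 genes had r over 0.9. The files pair none of these identifiers with a symbol. With the 4 group means removed, 3 genes had r over 0.9 with *Alox15*, 26 with *Ptgs1* and 12 with *Ptgs2*. How many unrelated genes would reach this r was not tested, and the p60 values of *Alox15* rest on 2 to 5 counts.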

How the data were processed

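Paired-end poly(A) reads were aligned by the authors with STAR to the rat genome and assigned to Ensembl genes by featureCounts, and the deposited values are the raw counts of 12 libraries. The submitters' processing notes name STAR 2.5.2b, Subread 1.5.2 and Rnor_6.0. The authors' published methods name a different version for featureCounts. The strand setting and the treatment of reads with several positions are not given in the sources used here.

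Genes were kept with filterByExpr (minimum count 10, minimum total 15, by group), libraries were scaled with TMM factors and all genes were tested with edgeR 4.0.16 in R 4.3.3 (quasi-likelihood, Benjamini-Hochberg over all genes tested, threshold 0.05). Line was a covariate across both lines, and each line was also fitted alone. Standard errors were derived from the F statistic of each coefficient. Exact permutation tests are two-sided, and those across both lines do not take line into account. DESeq2 1.42.0 was an alternative, as were other scalings and filters and leaving out libraries. Depth of 13852516 to 16725355 counts limits genes under 10 counts. The fits were also run on simulated data, in which no gene with counts as low as those of *Alox5* was given a change.

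The members, gene lists and tests were chosen with earlier results of these data known. The genes named are the 4 members and, by rule, for each member with a median of at least 10 counts (*Alox5* had fewer), the 3 most correlated genes, cut to 2 that fell and 2 that rose because identifiers have no symbols here. For the same reason lists of eicosanoid pathway genes and cell type markers were not analysed here.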

Additional observations from a re-analysis of the deposited data

How the results depend on the processing

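Across the fits of age, *Alox15* kept its direction and its side of the threshold in 44 of 44 alternatives and *Ptgs2* in 47 of 47. *Ptgs1* did so in 41 of 47 and *Alox5* in 23 of 32. In the immunocompetent line, leaving out libraries 4, 19 and 24 is the same fit as leaving out library 19. Leaving out libraries 3, 4, 5 and 22 is there the same fit as leaving out library 3. The totals other than that of *Alox5* therefore count these fits more than once. Each alternative was run for every gene that passed its filter. The 2 sets of libraries left out together were chosen from the counts of these same libraries. With total counts alone as the scaling, the log2 fold change of *Alox5* across both lines was 0.046, that of *Ptgs1* was 0.68 (athymic line 0.84), and the ratio of summed *Ptgs2* counts was 2.64 (immunocompetent line 2.43). Without libraries 4, 19 and 24, it was 0.12 for *Alox5* across both lines and -0.13 for *Ptgs1* in the immunocompetent line, and the difference between the lines was -0.025 for *Ptgs2*. Without libraries 3, 4, 5 and 22, *Alox5* was 0.21 across both lines, the *Ptgs2* interaction was -0.036, its difference between the lines at p21 was 0.11, and 3342 genes were called in the athymic line, where 1 p21 library was left. The cause of these shifts was not tested.

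Leaving out 1 library at a time gave -0.34 to 0.059 for *Alox5* across both lines and -0.28 to 0.53 in the athymic line. It gave 0.34 to 0.67 for *Ptgs1* across both lines, -0.13 to 0.68 in the immunocompetent line, 0.45 to 0.94 in the athymic line and -0.045 to 0.79 for its interaction. The *Ptgs2* difference between the lines was -0.035 to 0.10 at both ages and -0.22 to 0.041 at p21. For *Alox15* across both lines the range was -4.36 to -4.07.

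Counts of genes that differed between the lines were unstable. The interaction gave 115 without a filter, 0 with at least 10 counts in every library, 146 with DESeq2, 3 without libraries 4, 19 and 24, 0 without libraries 3, 4, 5 and 22, and 1 to 138 without 1 library. The lines at both ages gave 16 without a filter, 261 with DESeq2, 1 and 63 without these sets of libraries, and 0 to 74 without 1 library. At p21 they gave 282, 140 with DESeq2, 1257 without libraries 3, 4, 5 and 22, and 0 to 85. At p60 they gave 11, 106 with DESeq2, 179 without libraries 4, 19 and 24, 26 without libraries 3, 4, 5 and 22, and 0 to 61. No paired analysis was possible because no replicate number is shared between groups. Depth limits *Alox5* at both ages and *Alox15* at p60.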
